A study of Mus musculus with 2 samples.

Results

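Isolated CG dyads are CG sites of E14 mouse embryonic stem cells at which 5-hydroxymethylcytosine (5hmC) was listed with no other listed cytosine nearby. A CG dyad is the pair of cytosines that face each other on the plus and minus strands of a CG dinucleotide. A dyad was called isolated when it lay on an autosome and no other cytosine of any context was listed within 1000 bp on either side, apart from the cytosine on its own opposite strand. By this rule 110049 of 8793027 autosomal dyads with a listed cytosine were isolated, which is 1.25% (95% exact interval 1.24 to 1.26). The other 8682978 autosomal dyads had a listed neighbour and are called non-isolated. All chromosomes together held 8928957 dyads.

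The study mapped 5hmC by AbaSI digestion and sequencing. E14 is an established mouse embryonic stem cell line, and both libraries came from cells at passage 12 that carry no stated genetic change or treatment. The table held 1 read count per cytosine for the 2 libraries together, with 176006227 reads over 13025343 cytosines, a median of 9 and a lowest count of 2. The libraries could not be told apart, so no value below has a replicate error and no test between samples was possible. Intervals are exact binomial intervals at 95% over dyads or cytosines and cover counting error only. They treat dyads as independent, which dyads of the same stretch need not be. Reads may include PCR copies, which are not independent molecules. Where a spread is given, it is over the 19 autosomes, which are not replicates.

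5hmC is made from 5-methylcytosine by the TET enzymes and is a step on the path by which methyl marks are removed from DNA. In embryonic stem cells TET1 and TET2 are the main enzymes of this family, and 5hmC is enriched near enhancers and within genes. Methylation of a CG is kept on both strands by DNMT1 after replication. 5hmC is not thought to be copied in this way, so the strands of a dyad can differ. AbaSI cuts at a short, nearly fixed distance to the 3′ side of a glucosylated 5hmC. The 2 strands of a dyad are therefore seen through separate cuts on either side of it.

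The members were chosen by the distances between listed cytosines, and these distances are a description. The median distance from an isolated dyad to its nearest listed cytosine was 1490 bp, with quartiles of 1189 and 2108 bp. The median over all autosomal dyads was 35 bp. On the farther side the next listed cytosine was at a median of 2922 bp, and the 2 gaps together had a median of 4589 bp. Dyads became rare as the distance grew. Beyond 2000 bp there were 30722 dyads, beyond 5000 bp there were 2731, beyond 10000 bp there were 282 and beyond 50000 bp there were 11. At the threshold, the 379 dyads at 1001 or 1002 bp had a median of 6 reads and 50 of them were listed on both strands. The 370 dyads at 999 or 1000 bp, just outside the rule, also had a median of 6 reads, and 31 of them were listed on both strands.

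Isolated dyads carried few reads. Their median was 5 reads summed over both strands, with quartiles of 4 and 9, and their mean was 7.07. Non-isolated dyads had a median of 13 reads, quartiles of 7 and 24, and a mean of 19.2. The ratio of the means was 0.369. The lower mean held on 19 of 19 autosomes, where the ratio ran from 0.295 on chromosome 11 to 0.428 on chromosome 13. Isolated dyads thus made up 1.25% of the autosomal dyads and 0.466% of their reads. Of the isolated dyads, 24.6% had at most 3 reads, against 7.60% of the others. At least 20 reads were found at 3822 isolated dyads (3.47%), against 32.8% of the others, and at least 50 reads at 221 (0.201%), against 6.27%. Few reads were not particular to isolated dyads. Non-isolated dyads with the nearest listed cytosine at 501 to 900 bp or 901 to 1000 bp had a median of 6 reads. Cytosines that are not listed were not measured as 0, so these values cover listed cytosines only.

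**Figure D1:**
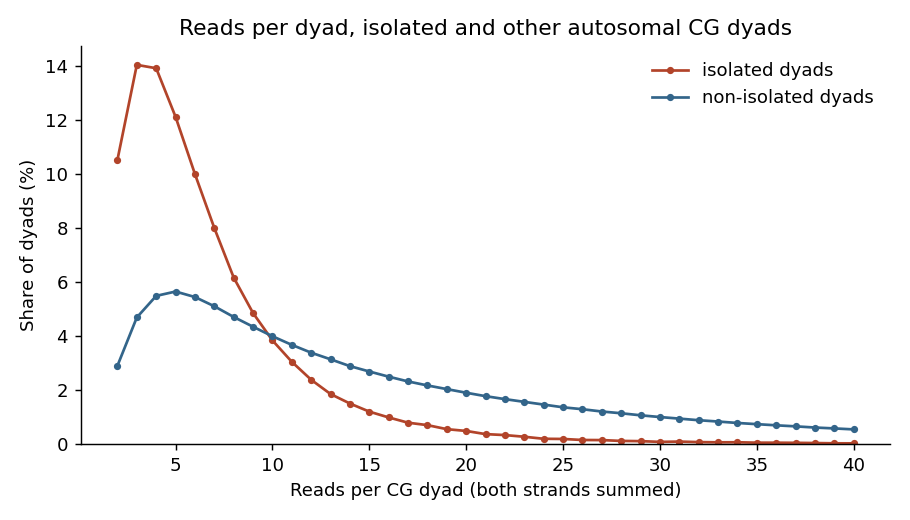
Share of dyads (vertical axis, percent) with each number of reads summed over both strands (horizontal axis, shown from 2 to 40) for isolated and non-isolated autosomal CG dyads. At 2 reads lie 10.5% of the isolated and 2.91% of the other dyads, and at 13 reads 1.86% and 3.14%.

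Most isolated dyads were listed on 1 strand. Of the 110049, 8268 were listed on both strands, which is 7.51% (7.36 to 7.67). Of the non-isolated dyads 37.8% (37.78 to 37.85) were listed on both. The opposite strand of the same dyad was not counted as a neighbour, so the rule did not fix this share. The share was lower in isolated dyads on 19 of 19 autosomes. Per autosome it was 7.65% ± 0.827 (SD, n = 19 chromosomes) for isolated dyads, from 6.64% on chromosome 14 to 10.2% on chromosome 11. For non-isolated dyads it ran from 34.2% to 48.2%, so the ranges of the autosomes did not overlap. Among isolated dyads listed on 1 strand, 50839 of 101781 were on the plus strand, or 49.9% (49.6 to 50.3). Neither strand was thus listed more often.

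A dyad with few reads on one strand is less likely to have enough on the other to be listed, so the shares were compared at equal reads. The reads of the stronger strand were used, and the non-isolated dyads were weighted to the reads of the isolated ones. The share listed on both strands was then 18.8% in non-isolated dyads against 7.51% in isolated dyads, a difference of -11.3 percentage points. It was below 0 on 19 of 19 autosomes, with a range of -12.3 to -10.2. The gap widened with reads. With 5 to 9 reads on the stronger strand, 8.51% (8.26 to 8.76) of 47275 isolated dyads were listed on both strands, against 22.0% of the others. With 20 to 49 reads the shares were 19.7% (18.2 to 21.3) of 2494 isolated dyads and 66.6% of the others. With at least 50 reads, 27 of 192 isolated dyads were listed on both strands, or 14.1% (9.48 to 19.8), against 68.7%. Matching on the stronger strand limits how many reads the partner can have, so another match was made. It counted cytosines in place of dyads, and a dyad listed on both strands entered for each strand. Its difference is therefore of another measure and not directly comparable with that above. When each listed cytosine was matched on its own reads, the opposite cytosine was listed for 13.98% of the isolated and 46.0% of the other cytosines, a difference of -32.0 points.

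**Figure D2:**
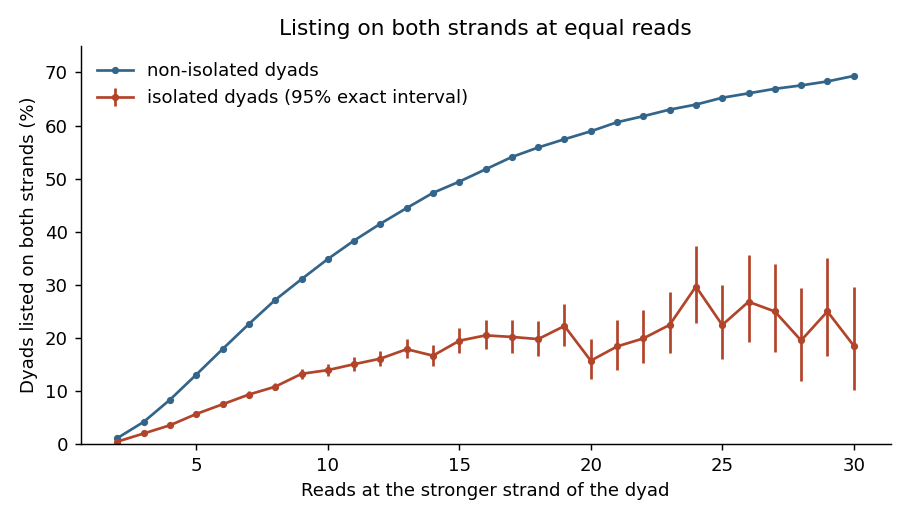
Share of dyads listed on both strands (vertical axis, percent) against the reads at the stronger strand (horizontal axis, 2 to 30) for isolated dyads, with 95% exact intervals as bars, and for non-isolated dyads. At 10 reads the shares are 13.96% and 34.9%, and at 20 reads 15.7% and 58.9%.

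Beyond 30 bp, listing on both strands was lower in every bin of greater distance, and the intervals on either side of the threshold overlapped. It was 43.1% for dyads with the nearest listed cytosine at 11 to 30 bp and 38.7% at 31 to 100 bp. It was 23.5% at 201 to 500 bp and 10.2% (9.75 to 10.6) at 901 to 1000 bp. Inside the isolated set the share was lower again at each step, from 9.56% (9.11 to 10.02) at 1001 to 1100 bp to 7.01% (6.69 to 7.35) at 1501 to 2000 bp and 5.11% (4.67 to 5.57) at 3001 to 5000 bp. Beyond 10000 bp, 8 of 282 dyads were listed on both strands, or 2.84% (1.23 to 5.51). Reads changed less over this range, with a median of 6 at 1001 to 1100 bp and 5 beyond 1500 bp. With every bin weighted to the reads of the isolated dyads, the share still went from 19.9% at 11 to 30 bp to 9.11% at 1001 to 1100 bp and 5.45% at 3001 to 5000 bp. Against only the dyads whose nearest neighbour was over 500 and at most 1000 bp away, the difference at equal reads was -3.78 points in place of -11.3.

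**Figure D3:**
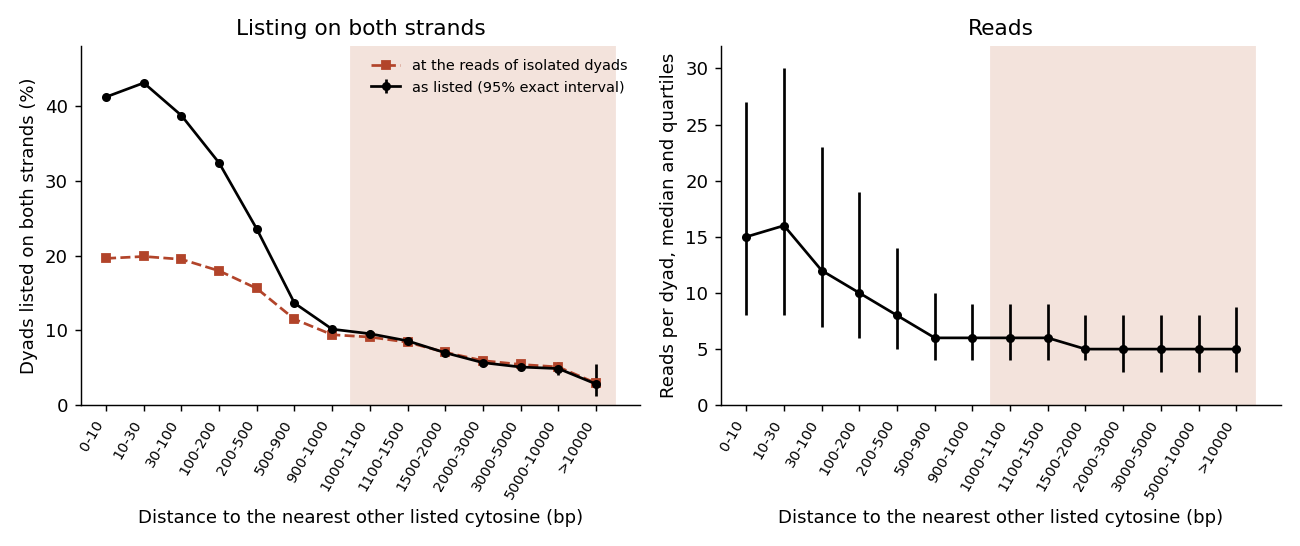
Dyads by distance to the nearest other listed cytosine (horizontal axes, bins in bp), with isolated dyads in the shaded area. Left, the share listed on both strands as listed, with 95% exact intervals, and weighted to the reads of isolated dyads. Right, reads per dyad as the median, with bars to the quartiles. The share falls from 43.1% at 11 to 30 bp to 2.84% beyond 10000 bp, and the median of reads from 16 to 5.

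Where isolated dyads were listed on both strands, the strands carried low counts. The stronger strand had a median of 8 reads and the weaker a median of 4, against 17 and 8 in non-isolated dyads. Spearman's correlation between the reads of both strands was 0.12 over the 8268 isolated dyads and of 0.24 over the 3283471 others. These are descriptions across dyads of the same pooled libraries, and they were not compared at equal reads. Counts differed by more than 3-fold between strands in 16.2% (15.4 to 17.0) of these isolated dyads and in 22.3% of the others. This order turned at equal total reads, where the weighted share of the others was 14.9%.

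The class code that the authors gave each cytosine was mainly CGCH or 1CG. What the codes mean is not stated in the labels or the table. Of the 118317 cytosines in isolated dyads, 73779 were CGCH, or 62.4% (62.1 to 62.6), and 44338 were 1CG, or 37.5%. In non-isolated dyads CGCH made up 54.7% and 1CG 37.1%, and 2CG made up 8.20%. The excess of CGCH was smaller against non-isolated dyads without very close neighbours. CGCH made up 59.3% where the nearest listed cytosine was at 31 to 100 bp and 61.8% at 901 to 1000 bp. The code 2CG was held by 20.8% of the cytosines in dyads with the nearest listed cytosine at 11 to 30 bp, but by 0.0651% at 31 to 100 bp. The rule takes out dyads with such close neighbours, so a low share of 2CG in isolated dyads follows from it. Still, 200 isolated cytosines carried the code 2CG, or 0.169%. These had a median of 4 reads, against 16 for the 2CG cytosines of non-isolated dyads, and 19 of the 200 had the opposite cytosine of the same dyad listed. CGCH cytosines had a median of 6 reads and 1CG cytosines of 5 in isolated dyads, against 10 and 9 in the others. The opposite cytosine was listed for 13.6% (13.4 to 13.9) of the isolated CGCH cytosines and 14.5% (14.2 to 14.9) of the isolated 1CG cytosines. In non-isolated dyads it was listed for 55.4% and 55.9%. In the 8268 isolated dyads listed on both strands, 48.8% had 1CG on one strand and CGCH on the other, 36.4% had CGCH on both and 14.6% had 1CG on both. In non-isolated dyads listed on both strands these shares were 42.4%, 30.2% and 14.1%. There, 2CG paired with CGCH in a further 7.57% and with 1CG in 5.00%.

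Isolated dyads were most frequent where few cytosines were listed over a far wider stretch than the rule used. A window with few listed cytosines also has wider gaps, so this is a description and not independent of the rule. The 100 kb window of an isolated dyad held a median of 129 listed cytosines (quartiles 82 and 231), against 901 (551 and 1232) for a non-isolated dyad and 389 for all windows. The 24161 autosomal windows were ranked by listed cytosines and divided into deciles. The decile with the fewest, up to 73 per window, held 19.2% of the isolated dyads and 0.975% of all dyads. The 3 deciles with the fewest together held 63.4% of the isolated dyads. At the other end, the decile with at least 1212 cytosines per window held 318 isolated dyads, or 0.289%, and 25.9% of all dyads. Isolated dyads made up 24.6% of the dyads in the first decile and 0.0139% in the last. Most windows nevertheless held some, since 17447 windows, or 72.2%, had at least 1 isolated dyad, with a median of 3 per window and a maximum of 22.

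The share listed on both strands also moved with these windows. Among isolated dyads it was 4.90% (4.61 to 5.20) in the first decile, 8.27% (7.86 to 8.69) in the fourth and 15.5% (12.9 to 18.4) in the ninth, and 10.1% (6.99 to 13.9) in the last. The median number of reads of isolated dyads was 5 in the first 3 deciles and 6 in the other 7. For non-isolated dyads this median was 6, 7 and 7 in the first 3 deciles and 18 in the last. Non-isolated dyads of the same decile, weighted to the same reads, had 8.13% in the first, 14.97% in the fourth, 23.8% in the ninth and 22.3% in the last. Isolated dyads were lower in 10 of 10 deciles. Matched on both reads and the decile of windows, the difference was -5.46 points in place of -11.3, with 7.51% against 13.0%.

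**Figure D4:**
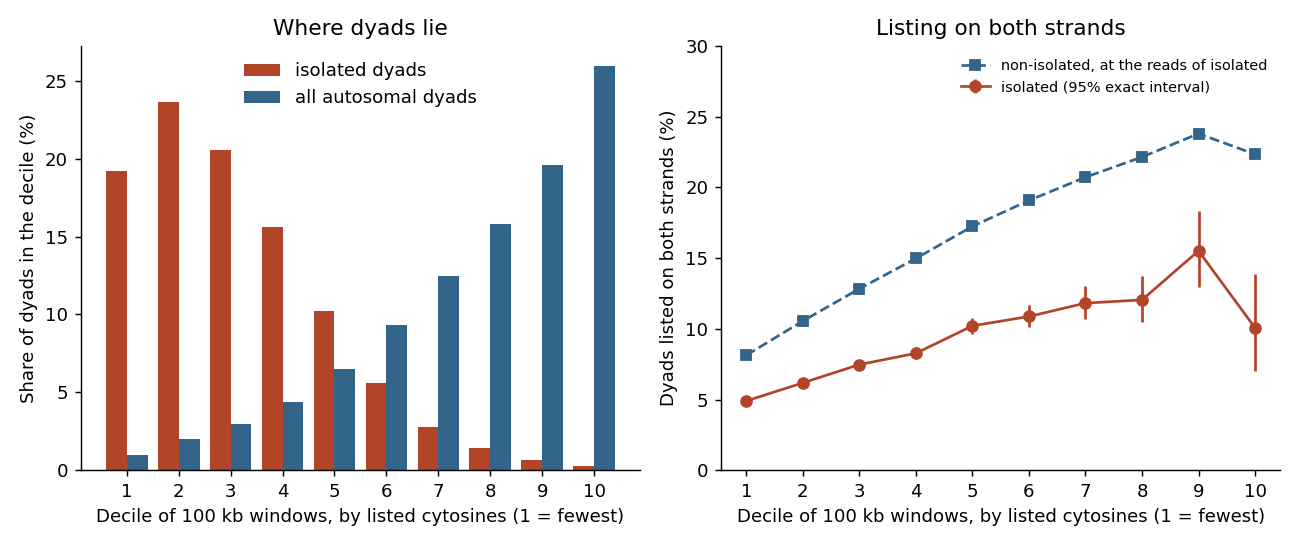
Windows of 100 kb in deciles by their number of listed cytosines (horizontal axes, 1 is the decile with the fewest). Left, the share of isolated and of all autosomal dyads in each decile. Right, the share listed on both strands for isolated dyads, with 95% exact intervals, and for non-isolated dyads at the same reads, which is higher in 10 of 10 deciles.

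The 5 windows with the most isolated dyads lay on chromosomes 1, 5 and 14. There were 22 isolated dyads on chromosome 1 from 49100001 to 49200000, which were 59.5% of its 37 dyads and had a median of 6 reads and a highest value of 14. Chromosome 5 from 87400001 to 87500000 held 22 of 87 dyads, with a highest value of 27 reads. Chromosome 14 from 94000001 to 94100000 held 22 of 77, with a highest value of 19. Chromosome 1 from 102400001 to 102500000 and from 117900001 to 118000000 held 21 each, of 54 and 65 dyads. In each of the 5 windows 2 or 3 isolated dyads were listed on both strands. Coordinates are of the build mm9, and no annotation of that build was used here, so genes and sequence at these places are not given.

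Isolated dyads often followed one another. Such runs rest on the same listed positions as the rule, so they are a description and not independent of it. No share to compare them with was computed. In the order of listed features along a chromosome, 58736 isolated dyads, or 53.4%, stood next to at least 1 other isolated dyad. The other 51313 stood alone between other features. There were 14823 runs of 2, 5167 runs of 3 and 1149 runs of 5 or more. The longest run had 12 isolated dyads over 153647 bp of chromosome 14, from 4604175 to 4757821. Their reads ran from 3 to 21 with a median of 5, and 1 of the 12 was listed on both strands. The next longest were 5 runs of 11 dyads, of which 2 were on chromosome 4 and 1 each on chromosomes 12, 15 and 18. They spanned 25427 to 81174 bp and had medians of 4 or 5 reads. The run on chromosome 15 had 1 dyad listed on both strands and the other 4 runs had 0. Gaps of over 1000 bp between neighbouring listed cytosines numbered 440731 and covered 45.5% of the autosomal span between the first and last listed sites. Of these gaps, 184244 (41.8%) were bounded on at least 1 side by an isolated dyad.

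The nearest listed cytosine of an isolated dyad was a CG in 88.2% of cases and a CA, CT or CC (together CH) in 11.8%. CH made up 5.99% of all listed autosomal cytosines. These nearest CG cytosines had a median of 6 reads and the CH ones of 4, against 10 reads for all listed autosomal CG cytosines. Of the nearest cytosines, 35433 (32.2%) were themselves in isolated dyads, with a median of 5 reads. The 61683 nearest CG cytosines outside isolated dyads had a median of 6. CH cytosines that met the same rule of isolation numbered 12778, or 1.66% (1.63 to 1.69) of the 770649 autosomal CH cytosines. They had a median of 4 reads (quartiles 3 and 6) and a mean of 4.58. Isolated CG dyads listed on 1 strand had a median of 5 (3 and 8) and a mean of 6.43. At least 10 reads were found at 5.08% of these CH cytosines and at 15.9% of these CG dyads. The highest read count of an isolated CH cytosine was 78. Without a library lacking glucosylation, cutting that did not depend on 5hmC could not be measured at either.

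The share of isolated dyads differed between autosomes. It was lowest on chromosome 11, with 2743 dyads or 0.408% (0.393 to 0.424), and on chromosome 8, with 4150 or 0.712% (0.691 to 0.734). On the other 17 autosomes it ran from 0.800% on chromosome 19 to 2.03% on chromosome 3. Isolated dyads per megabase numbered 23.1 on the first and 32.2 on the second of these, and 36.0 to 58.9 elsewhere. Chromosomes 11 and 8 also had the highest shares of isolated dyads listed on both strands, at 10.2% (9.10 to 11.4) and 9.13% (8.27 to 10.05), with a median of 6 reads on each. On the other 17 this share ran from 6.64% to 8.49%. The intervals of 6 of these 17 reached that of chromosome 8, and the interval of 1, chromosome 13, reached that of chromosome 11. Both chromosomes had the most listed cytosines per megabase, 8961.9 and 7116.6. Their non-isolated dyads also had the highest medians of reads, 18 and 16, against 11 to 13 on the other 17. The part of that density or of these reads in the shares above was not tested. Along the chromosomes, the isolated share of dyads was 1.999% in the first decile of the length and 0.515% in the last.

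**Figure D5:**
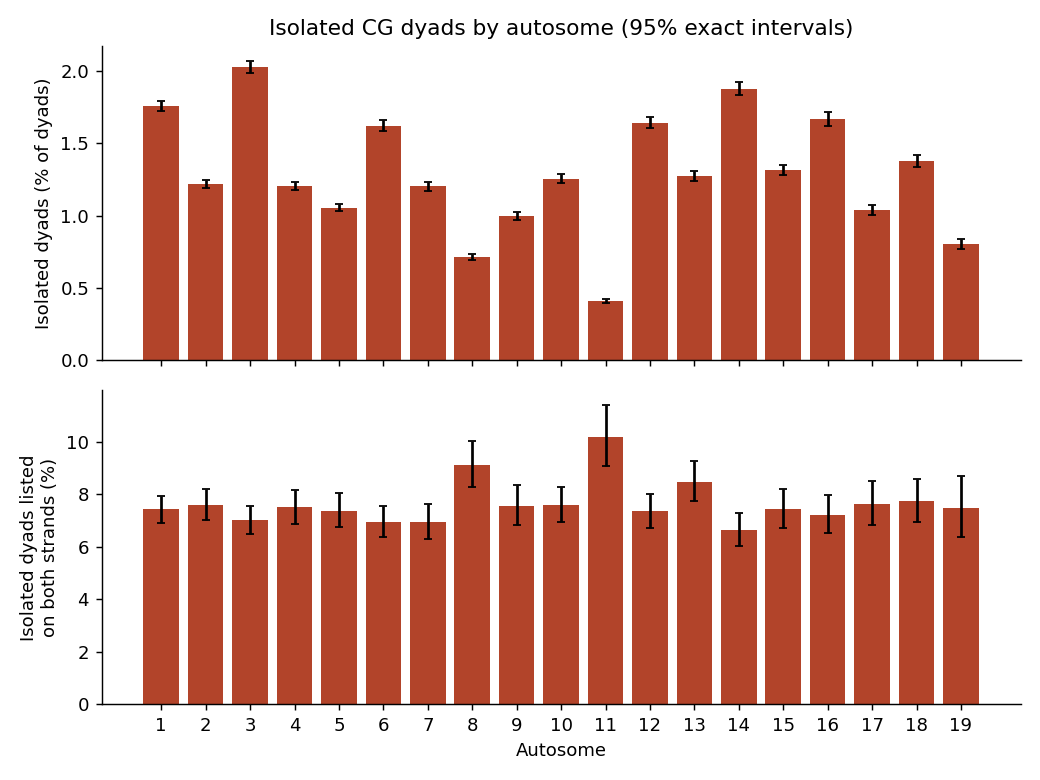
Isolated CG dyads by autosome (horizontal axis), with 95% exact intervals as bars. Top, the share of all dyads of the autosome, lowest on chromosome 11 at 0.408% and highest on chromosome 3 at 2.03%. Bottom, the share of isolated dyads listed on both strands, highest on chromosome 11 at 10.2%.

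The X chromosome was outside the rule, and the same criterion was applied to it for comparison. Of its 135542 dyads, 13021 were isolated, or 9.61% (9.45 to 9.76), above every autosome. Of these, 609 were listed on both strands, or 4.68% (4.32 to 5.05), below every autosome, and their median was 5 reads. Non-isolated dyads of X had 19.3% on both strands and a median of 8 reads, against 37.8% and 13 on the autosomes. The part of these lower reads in the shares of X was not tested. As listed, the share on both strands was thus lower among isolated dyads on X too, but it was not compared at equal reads there.

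The isolated dyads with the most reads were nearly all listed on 1 strand, as were isolated dyads as a whole, of which 7.51% were listed on both. The highest was on chromosome 5 at 16258952 to 16258953, with 387 reads on the minus strand, and its plus strand was not listed. Its nearest listed cytosines were 5888 bp to the left and 3658 bp to the right, and its 100 kb window held 144. Next came chromosome 14 at 112274731 with 358 reads on the minus strand, chromosome 13 at 13431209 with 283 on the plus strand and chromosome 5 at 15057077 with 254 on the plus strand. On chromosome 3, the dyads starting at 70550055 and 34745364 had 235 and 203 reads, both on the minus strand. The second of these lay in a dense window of 1117 listed cytosines, 1004 bp from its left neighbour, so it only just met the rule. The dyad of chromosome 15 starting at 33762638 had 192 reads on the minus strand, that of chromosome 17 at 81752470 had 179, also minus, and that of chromosome 5 at 59704216 had 172, also minus. Only 1 of the 10 was listed on both strands, on chromosome 7 at 100366142, with 145 reads on the plus and 42 on the minus strand. With at least 100 reads on the stronger strand, 3 of 26 isolated dyads were listed on both, or 11.5% (2.45 to 30.2). Of the non-isolated dyads with such reads 55.1% were.

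High reads on both strands were rare among isolated dyads. The dyad with the highest weaker strand was on chromosome 17 at 6523264 to 6523265, with 75 reads on the plus and 62 on the minus strand, 1729 and 3365 bp from its neighbours. After the dyad of chromosome 7 named above came chromosome 1 at 10751991 with 48 and 36 reads, chromosome 11 at 105084180 with 36 and 40, and chromosome 14 at 7886372 with 42 and 36. In these 5 dyads other than that of chromosome 7, the strands differed by less than 1.5-fold. The chromosome 11 dyad lay in a window of 978 listed cytosines, and the others in windows of 85 to 206.

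Of the 5 dyads farthest from a neighbour, 4 had 3 to 7 reads and the other had 35. The farthest was on chromosome 7 at 23283985, with 7 reads on the plus strand, 1101636 bp from the next listed cytosine on the left and 271824 bp on the right. On chromosome 5 the dyad at 11768965 had 5 reads on the minus strand and its nearest neighbour was 149516 bp away. Also on chromosome 5, the dyad at 95700930 had 35 reads on the plus strand, with its nearest neighbour at 92255 bp. The remaining 2 were on chromosome 7 at 22182349, with 3 reads, and at 23675826, with 5 reads, 87141 and 63345 bp from a neighbour. These 5 were all listed on 1 strand, but of all 11 dyads beyond 50000 bp, 2 were listed on both. The stretches around them are gaps between listed cytosines and do not measure absence of 5hmC.

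Close to the threshold, 1 of the 5 dyads with the most reads just inside and 3 of the 5 just outside were listed on both strands. These few were picked for their reads, and the full sets had the other order. Of all 379 dyads just inside 13.2% were listed on both strands, against 8.38% of the 370 just outside. No interval was computed for these narrow sets. In wider bins the order turned again, with 9.56% at 1001 to 1100 bp and 10.2% at 901 to 1000 bp, whose intervals overlapped. Just inside, chromosome 17 at 54052757 had 56 and 9 reads on its strands at 1002 bp, and chromosome 5 at 51781296 had 43 on the minus strand at 1001 bp. The other 3 just inside had 30 to 33 reads on 1 strand. Just outside, chromosome 14 at 41593464 had 65 reads on the minus strand at 1000 bp, and chromosome 1 at 53229624 had 21 and 9 reads at 999 bp. The other 3 just outside had 23 to 27 reads in all, 2 of them on both strands.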

How the data were processed

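The deposited table gives, per listed cytosine, whole-number read counts that the authors made, with strand, dinucleotide and class code. CASAVA 1.8.2, Bowtie and the build mm9 are named in the submitters' processing notes. Per the labels' protocols, 100 ng of DNA was glucosylated, cut with AbaSI and amplified for 16 cycles. The rule assigning cuts to cytosines, any minimum for listing and the joining of the 2 libraries are not stated. Whether the libraries came from separate cultures is not stated.

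Plus and minus CG cytosines 1 bp apart were joined into dyads. Distances ran from the edges of the dyad to the nearest other listed cytosine. Positions are 1-based. At equal reads, shares were compared within each number of reads of the stronger strand, with 60 or more pooled, and weighted to the isolated dyads. Strand balance was matched on total reads, with 100 or more pooled. Windows of 100 kb were counted from position 1. The functions were tested on simulated sites. Python 3.11.15, numpy 2.4.6, pandas 2.3.3, scipy 1.17.1 and matplotlib 3.10.9 were used.

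The named dyads were the 10 with the most reads, the 5 listed on both strands with the highest weaker strand, the 5 farthest from a neighbour with listed sites on both sides, and the 5 with the most reads within 2 bp of each side of the threshold. The 5 windows with the most isolated dyads were also named. The members, the comparisons and these rules were chosen with earlier results of these data known. Alternatives were minimum counts of 5 and 10, other distances, CG neighbours only, and leaving out the top 0.1% of sites (above 168 reads) or chromosomes 8 and 11. The planned description of the sequence and genes around the dyads was not run, because no mm9 genome or annotation was used here.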

Additional observations from a re-analysis of the deposited data

How the results depend on the processing

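Of 59 values of 7 results under 8 planned and 3 added alternatives, 34 moved and 25 did not. Only the difference at equal reads can change sign, and it was below 0 under every alternative. The other results are counts, shares, medians or a ratio of means, which cannot fall below 0. A value was said to move when it left the 95% interval of a share, changed the number of dyads by over 1.5 times, or shifted by more than 1 SD over autosomes. With minimums of 5 and 10 reads, isolated dyads made up 1.67% and 2.75% of dyads, 6.80% and 5.86% of them were listed on both strands, the median was 8 and 13 reads, the ratio of mean reads 0.447 and 0.574, and the share whose stronger strand was CGCH 64.8% and 68.7%, against 62.6% in the main analysis. The difference at equal reads was -10.4 points with 10 reads. A minimum also removes neighbours, so these are other sets of dyads. With 500, 2000 and 5000 bp in place of 1000 bp there were 309267, 30722 and 2731 isolated dyads, or 3.52%, 0.349% and 0.0311%, with 11.2%, 5.42% and 4.69% on both strands, CGCH shares of 62.0%, 63.4% and 64.4%, and differences at equal reads of -9.90, -12.2 and -13.1 points. At 500 bp the median was 6 reads and the ratio 0.414. With CG neighbours only, 1.49% were isolated and 7.85% of these were on both strands. Without chromosomes 8 and 11, 1.37% were isolated. The alternatives chosen after seeing the data gave differences of -5.46 points with windows matched as well, and -3.78 against dyads whose nearest neighbour was over 500 and at most 1000 bp away. With each cytosine matched on its own reads the difference was -32.0 points, but this is of shares of cytosines and not of dyads. The causes of these changes were not tested. No paired analysis was possible because the table has 1 count column for both libraries, and for the same reason no replicate could be left out. Depth limits the set itself: 110049 dyads were isolated at the lowest listed count of 2, but 126288 and 134771 at minimums of 5 and 10 reads, so which dyads count as isolated depends on that minimum.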
